A study of Saccharomyces cerevisiae with 6 samples.

Results

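The introns, exons and splice junctions of 4 genes of the pre-mRNA processing machinery that carry introns themselves were followed in budding yeast: MUD1 (YBR119W), LSM2 (YBL026W), LSM7 (YNL147W) and STO1 (YMR125W). They were taken by name from the authors' deposited table of 239 genes, in which each of the 4 has 1 row with features for exon, intron and exon junction. The tested cells carried the S2197F change in PRP8 and the wild type cells carried unchanged PRP8. In both, the chromosomal PRP8 gene had been deleted and the only copy sat on a HIS-marked centromeric plasmid, so each strain depended on a plasmid gene. Cells of both genotypes were grown overnight at 30 °C in rich medium, diluted to an OD600 of 0.1 and kept at 37 °C until an OD600 of about 0.7. RNA of 3 independent pairs of cultures was compared on 6 2-colour arrays, where both arrays of a pair hold 1 RNA preparation of each strain with the dyes exchanged and so give 1 biological replicate (n = 3). All values are log2 ratios of S2197F to wild type, as the table's column names give them, so a positive value means more signal in S2197F. No source states the base of the logarithm, which was taken as 2, because single-array values in a companion table stop at 16.61, the log2 of 1e+05. The labels read exon, intron and junction features as total, precursor and mature mRNA, but intron probes also bind lariats and other intermediates. Sequences and probe positions were not used here.

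Prp8 scaffolds the catalytic centre of the spliceosome, and mutations of human PRPF8 cause retinitis pigmentosa, a degeneration of the retina. Splicing begins when the U1 snRNP pairs with the 5′ splice site; Mud1 is a protein of that particle. Lsm2 and Lsm7 belong to the ring of Lsm proteins at the 3′ end of U6 snRNA, the RNA that pairs with the 5′ splice site in the active spliceosome. Both also belong to a cytoplasmic Lsm ring that promotes mRNA decay. Sto1, also called Cbc1, is the large subunit of the nuclear cap-binding complex, which binds the cap of new transcripts and helps the U1 snRNP to engage the first intron.

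The first comparison asks whether the introns of these genes gave more signal in S2197F than in wild type. The STO1 intron rose 1.80-fold, those of LSM7 and LSM2 had positive mean ratios without passing the test, and that of MUD1 had a mean close to 0. Of 251 introns tested across the table, 59 were called higher (23.5%) and 0 lower (limma with Benjamini-Hochberg adjustment), and without adjustment 90 higher and 2 lower introns had a p under 0.05. Outside ribosomal protein genes, which held most of the calls, 15 of 150 introns were called higher (10%). The count of 1 in 4 for the factor genes stands beside those shares, and with 4 genes nothing about them as a group can be read from it. Their median intron ratio was 0.53, against 0.15 for the 146 other introns outside ribosomal protein genes and 0.54 for the 101 introns of ribosomal protein genes.

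**Figure D1:**
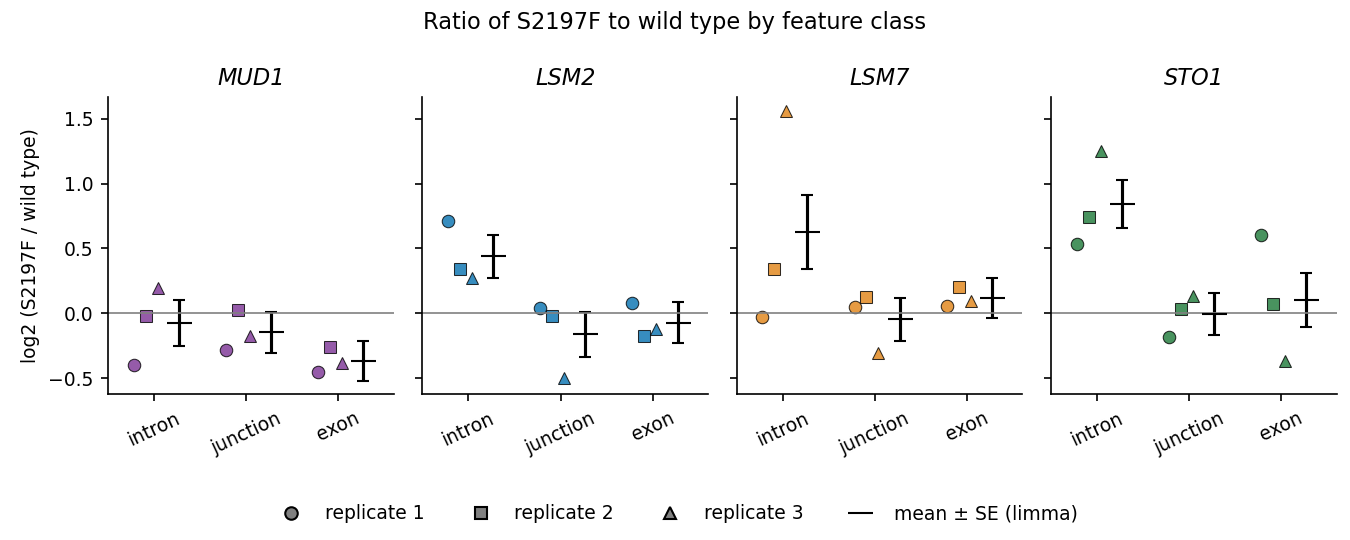
Log2 ratio of S2197F to wild type (vertical axis) of the intron, junction and exon features of MUD1, LSM2, LSM7 and STO1. Symbols are the 3 replicates and the bars give limma's mean ± SE; the 3 intron values of STO1 lie between 0.54 and 1.25, while those of LSM7 reach from -0.03 to 1.56.

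MUD1, the U1 snRNP gene, had intron ratios of -0.40, -0.02 and 0.19 in replicates 1, 2 and 3. The values lie on both sides of 0, and the mean was -0.07 ± 0.18 (SE, n = 3; limma adjusted p = 0.79, 95% interval -0.48 to 0.33). It ranked 222 of 251 introns from the highest, and 121 of the 150 outside ribosomal protein genes. In every replicate it stood below that replicate's median intron (differences of -0.61, -0.31 and -0.18). Those medians include the introns of ribosomal protein genes, whose own median was higher (0.54). The mean of MUD1 turned to 0.06 when each replicate was centred on the median of its exon features, so no direction can be given for it.

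LSM2 of the U6 ring had intron ratios of 0.71, 0.34 and 0.27. All 3 were above 0, which held for 51.4% of the introns measured in every replicate. The mean was 0.44 ± 0.17 (SE, n = 3), and it missed the threshold after adjustment (limma, unadjusted p = 0.03, adjusted p = 0.093, 95% interval 0.06 to 0.83). Against its own array it was less even: it stood above the median intron by 0.49 in replicate 1, by 0.05 in replicate 2, and was below it in replicate 3 (-0.11). By its mean it ranked 85 of 251 introns, and 25 of the 150 outside ribosomal protein genes. With each replicate centred on its exon median, the mean was 0.58 and passed (adjusted p = 0.0313, the lowest of 8 alternatives, which ran up to 0.375).

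LSM7, the second gene of that ring, had intron ratios of -0.03, 0.34 and 1.56. Replicate 3 stood far above the others, where LSM7 ranked 8 of 245 introns, while it ranked 161 of 251 in replicate 1 and 110 of 251 in replicate 2. The SD over replicates was 0.83, the 5th highest of 251 introns, for which the median SD was 0.27. The mean of 0.63 ± 0.29 (SE, n = 3) did not pass (limma adjusted p = 0.157, 95% interval -0.04 to 1.29). By that mean LSM7 ranked 45 of 251 introns, and 15 of the 150 outside ribosomal protein genes. Without replicate 3 the mean was 0.16 (adjusted p = 0.739), and without replicate 1 it was 0.95 and passed (adjusted p = 0.00201). Single replicates thus decide its size. Each of these fits gave LSM7, LSM2, MUD1 and STO1 the same SE (0.243 without replicate 1, 0.242 without replicate 3). The spread of LSM7 itself did not enter their p-values, so the pass says nothing about how alike its replicates were. Without replicate 2 the SE differed between genes (0.433 for LSM7), and the mean of 0.77 did not pass (adjusted p = 0.338).

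STO1, the cap-binding gene, had intron ratios of 0.54, 0.74 and 1.25. All 3 replicates were above 0 and above the median intron of their replicate, by 0.32, 0.45 and 0.88. The mean of 0.85 ± 0.19 passed (SE, n = 3; limma adjusted p = 0.0232, 95% interval 0.41 to 1.28). STO1 ranked 18 of 251 introns, and 9 of the 150 outside ribosomal protein genes. It lay beside the ACT1 intron, a common reporter of splicing in yeast, at 0.86 ± 0.20 (adjusted p = 0.0241). STO1 passed in 7 of 8 alternatives (adjusted p from 0.00101 to 0.158). The exception was the fit without replicate 2, where the mean was 0.90 and the adjusted p 0.158. In that fit only 2 introns of the whole table were called, and the SE differed between genes (0.261 for STO1). The passes without replicate 1 (adjusted p = 0.00101) and without replicate 3 (adjusted p = 0.0474) used an SE shared with LSM2, LSM7 and MUD1. The spread of STO1 itself did not enter those passes, so they say little about how steady its call is.

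**Figure D2:**
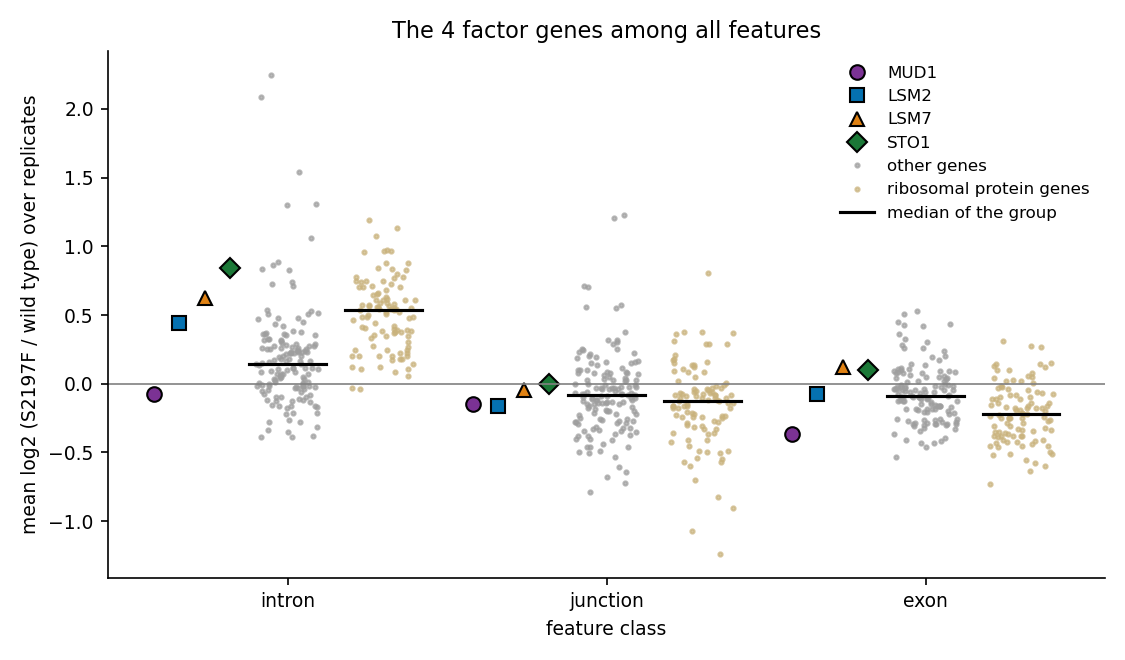
Mean log2 ratio of S2197F to wild type (vertical axis) of the 4 factor genes, left in each class, beside all other genes (grey) and ribosomal protein genes (brown); each dot is a feature and black lines are group medians. For introns, STO1 at 0.85, LSM7 at 0.63 and LSM2 at 0.44 lie above the 0.15 median of the other genes and MUD1 at -0.07 lies below it, whereas the 4 junction means all lie between -0.16 and -0.01.

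In order of mean intron ratio the genes ran STO1, LSM7, LSM2 and MUD1, and no neighbours in this order differed beyond their spread. STO1 minus LSM7 was 0.57, 0.40 and -0.31 in the 3 replicates (0.22 ± 0.47, SD, n = 3). LSM7 minus LSM2, within the same protein ring, was -0.74, 0.00 and 1.29 (0.18 ± 1.03). LSM2 minus MUD1 was 1.10, 0.36 and 0.08 (0.51 ± 0.53), of 1 sign but no larger than its SD. STO1 minus MUD1, the ends of the order, was 0.93, 0.76 and 1.06 (0.92 ± 0.15), above 0 in 3 of 3 replicates and unaffected by how an array is centred. This pair is the highest and the lowest mean of these same values, a choice that favours a wide gap. LSM7 minus MUD1 was also above 0 in 3 of 3 replicates, with 0.37, 0.36 and 1.37 (0.70 ± 0.58). STO1 minus LSM2 was -0.17, 0.40 and 0.98 (0.40 ± 0.58). All 6 pairs of genes were compared in this way, and an exact two-sided sign-flip test of 3 values cannot go below p = 0.25, so these differences are described without one.

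The second comparison asks whether spliced RNA of these genes was lost. None of the 4 junctions passed: 0 were called, 0 also without adjustment, against 1 of 248 lower (0.403%) and 0 higher in the whole table (limma; without adjustment, 29 lower and 4 higher had a p under 0.05). The junction of STO1 had -0.18, 0.04 and 0.13, centred on 0 with a mean of -0.01 ± 0.16 (SE, n = 3; adjusted p = 0.98, 95% interval -0.37 to 0.36). Its intron signal was thus 1.80 times that of wild type in a gene whose junction signal had no measured direction.

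The LSM2 junction had 0.04, -0.02 and -0.50 (mean -0.16 ± 0.17, adjusted p = 0.76), where replicate 3 alone was low. LSM7 had 0.05, 0.12 and -0.31 (mean -0.05 ± 0.17, adjusted p = 0.91), and replicate 3 was again the low one, although it held the highest intron value of that gene. MUD1 had -0.28, 0.02 and -0.18 (mean -0.14 ± 0.16, adjusted p = 0.76). The 95% intervals of LSM2 (-0.57 to 0.24), LSM7 (-0.43 to 0.34) and MUD1 (-0.51 to 0.22) leave room for a modest loss or gain of spliced RNA. The median of the 4 was -0.10, as was that of all junctions (-0.10).

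Exon signal, read by the labels as total mRNA, was examined next. No exon feature of the 4 genes passed (0 called), and 0 of 234 in the whole table were called in either direction (0%), while without adjustment 26 lower and 4 higher had a p under 0.05. MUD1 was the lowest of the 4, with -0.46, -0.26 and -0.38. All 3 replicates were below 0 and close together, which held in sign for 33.3% of exon features. The mean of -0.37 ± 0.15 (SE, n = 3) had an unadjusted p of 0.0464 and an adjusted p of 0.383 by limma. It ranked 35 of 234 exon features from the lowest, and 8 of the 135 outside ribosomal protein genes. Each replicate also stood below its own exon median (differences of -0.30, -0.19 and -0.19).

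LSM7 had exon ratios of 0.06, 0.21 and 0.10, all above 0, which held for 6.41% of exon features, and a mean of 0.12 ± 0.15 (adjusted p = 0.78). Beside MUD1 it differed evenly: LSM7 minus MUD1 was 0.51, 0.47 and 0.48 (0.49 ± 0.02, SD, n = 3). This was the most even of the 6 pairs in exon ratio, and the SDs of the others ran from 0.20 to 0.54. LSM2 had 0.08, -0.18 and -0.12 (mean -0.07 ± 0.16, adjusted p = 0.84). STO1 had 0.61, 0.07 and -0.37, a spread that ranked 28 of 234 exon features by SD, and its mean of 0.10 ± 0.21 had no settled direction (adjusted p = 0.83), being -0.15 without replicate 1.

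The last comparison sets the classes of 1 gene against each other within each replicate, so that any centring of an array drops out. Intron minus junction was called higher for 52 of 247 rows (21.1%) and lower for 1 (0.405%). Outside ribosomal protein genes it was called higher for 18 of 147 rows (12.2%). Of the 4 genes STO1 passed, with 0.72, 0.71 and 1.12 (mean 0.85 ± 0.28, SE, n = 3; limma adjusted p = 0.0219), and all 3 values lay above the replicate's median row. It missed the threshold without replicate 2 (0.92, adjusted p = 0.069) and without replicate 3 (0.72, adjusted p = 0.158), the highest of 6 alternatives, of which the lowest gave 0.0154. This fit has 57.2 prior degrees of freedom, so the SEs are nearly the same for every gene and say little about the spread of 1 gene.

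LSM2 had 0.67, 0.37 and 0.77, all above 0 like 57.5% of rows (mean 0.60 ± 0.28, adjusted p = 0.107). LSM7 had -0.08, 0.22 and 1.87 (mean 0.67 ± 0.30, adjusted p = 0.095), again set by replicate 3, without which the mean was 0.07. Without replicate 1 the mean of LSM7 was 1.05 and passed (adjusted p = 0.0337). MUD1 had -0.12, -0.04 and 0.37 (mean 0.07 ± 0.28, adjusted p = 0.87). The 95% interval of MUD1, -0.49 to 0.63, leaves room for a difference in either direction. It therefore cannot be said that its intron and junction ratios were alike. STO1 exceeded MUD1 in this measure by 0.84, 0.75 and 0.75 (0.78 ± 0.05, SD, n = 3).

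**Figure D3:**
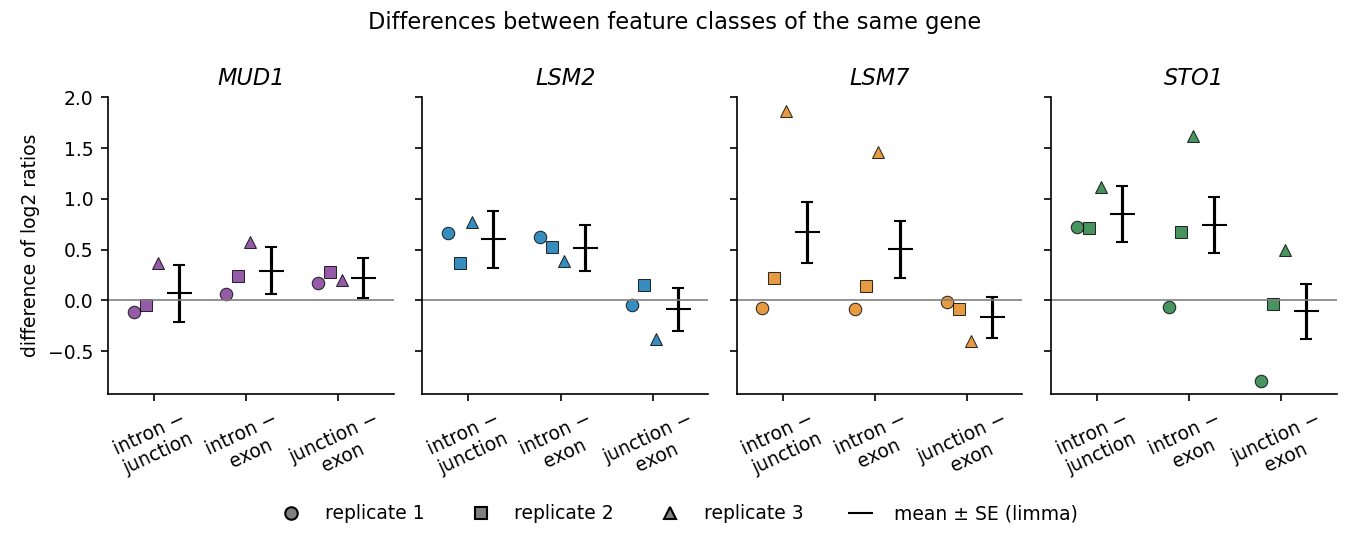
Differences between the log2 ratios of 2 feature classes of the same gene (vertical axis) for MUD1, LSM2, LSM7 and STO1, with symbols for the 3 replicates and bars for limma's mean ± SE. Intron minus junction of STO1 lies between 0.71 and 1.12 in all replicates, while the high value of LSM7, 1.87, comes from replicate 3 alone.

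Intron minus exon was called higher for 72 of 246 rows (29.3%), 14 of 145 outside ribosomal protein genes (9.66%), and for 0 of the 4 factor genes by limma (2 higher at a p under 0.05 without adjustment, LSM2 and STO1). STO1 had -0.07, 0.68 and 1.62 (mean 0.74 ± 0.28, adjusted p = 0.055), where the high exon ratio of replicate 1 removed the difference in that replicate. It passed when replicates were weighted (0.72, adjusted p = 0.0242, the lowest of 6 alternatives, which ran up to 0.491). Single replicates moved its mean, to 0.30 without replicate 3 and 1.15 without replicate 1, and neither passed. LSM2 had 0.63, 0.52 and 0.39, the most even of the 4 (mean 0.51 ± 0.23, adjusted p = 0.093). LSM7 had -0.09, 0.14 and 1.46 (mean 0.50 ± 0.28, adjusted p = 0.18), and MUD1 had 0.06, 0.24 and 0.58, all above 0 (mean 0.29 ± 0.23, adjusted p = 0.36). Without replicate 3 the mean of LSM7 was 0.025 and that of MUD1 0.15, and without replicate 1 that of LSM7 was 0.80. A difference above 0 in every replicate was found for 54.2% of all rows.

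Junction minus exon was called for 0 of 244 rows (0%; without adjustment, 5 higher and 6 lower had a p under 0.05). Within MUD1 it was 0.17, 0.28 and 0.21, positive and even (mean 0.22 ± 0.19, limma adjusted p = 0.70), and a difference above 0 in all 3 replicates was found for 18.1% of rows. The means of LSM2, STO1 and LSM7 were -0.09, -0.11 and -0.17, with adjusted p from 0.79 to 0.93. STO1 had the widest range, from -0.79 in replicate 1 to 0.50 in replicate 3.

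A list of genes drawn up for mRNA processing, export and decay served for comparison, although its TAD3 belongs to a tRNA enzyme. The list held 9 genes, of which 5 are in the table, with 11 rows: DBP2, an RNA helicase, YRA1 and MTR2, which act in mRNA export, NMD2, a factor of nonsense-mediated decay, and TAD3, a subunit of a tRNA deaminase. Of the 11 intron rows 1 was called higher, that of DBP2, and 0 lower, beside the 23.5% of all introns. MTR2 holds 6 of these rows and TAD3 2, so the rows are not independent. By gene the call was 1 of 5. DBP2 had 0.75, 0.57 and 0.85 (mean 0.73 ± 0.16, SE, n = 3; limma adjusted p = 0.0229), close to STO1. The genes differ in the other classes: DBP2 had a junction mean of 0.56 ± 0.16 (adjusted p = 0.194) and an intron minus junction of 0.17 ± 0.28 (adjusted p = 0.70), whereas STO1 had a junction mean of -0.01 and an intron minus junction of 0.85. The difference between DBP2 and STO1 itself was not tested.

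The median intron ratio over the 11 rows, 6 of them of MTR2, was 0.12, against 0.53 for the 4 factor genes and 0.27 for all introns. NMD2 had the lowest intron mean of the list, with -0.12, -0.06 and -0.32 (mean -0.17 ± 0.16, limma adjusted p = 0.47). A row of MTR2 had nearly the same mean (-0.17), from 0.49, 0.16 and -1.15. None of the list's rows was called in the junction or exon class or in any of the 3 differences (0 calls in each by limma, lowest adjusted p = 0.119). Without adjustment 2 junctions and 2 exons of the list were higher, 1 row was lower for intron minus exon and 2 for junction minus exon, and 0 rows for intron minus junction, at a p under 0.05.

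SMD2, a core Sm protein of the spliceosomal snRNPs, is also in the table and was added after that list was fixed. Its intron had -0.72, 0.21 and -0.28, with a mean of -0.26 ± 0.20 (SE, n = 3, limma adjusted p = 0.39). It was not called, like most introns outside ribosomal protein genes, of which 15 of 150 were called higher (10%). Its junction had -0.03 and -0.39 in the 2 replicates with a value.

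**Figure D4:**
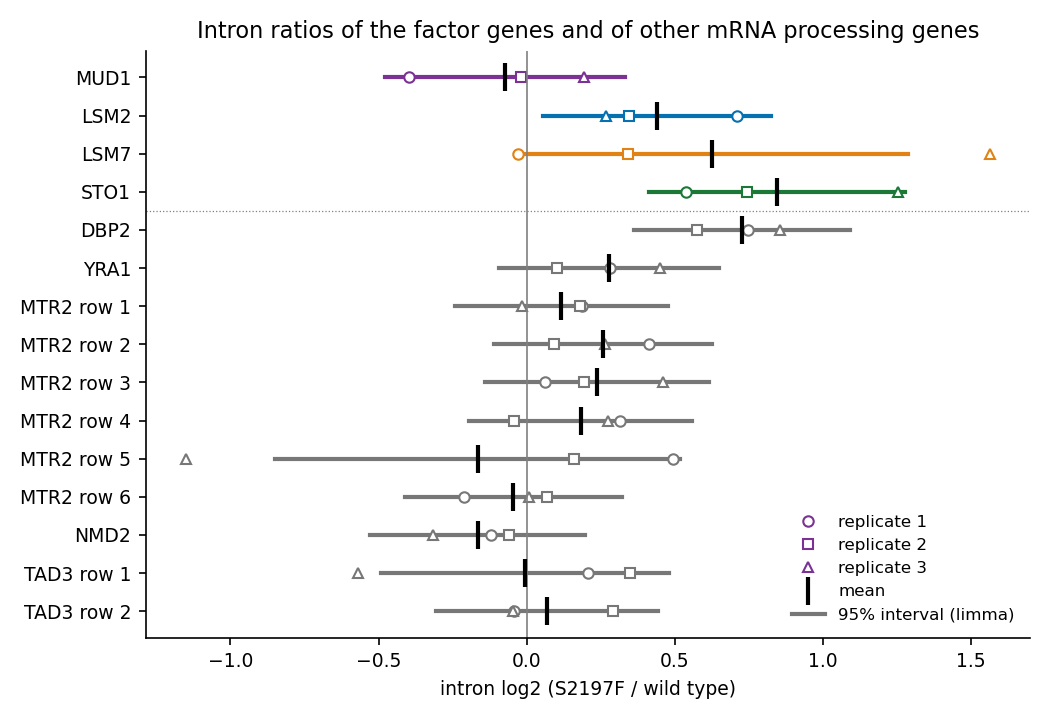
Intron log2 ratios of S2197F to wild type (horizontal axis). The 4 factor genes are above the dotted line and the 11 rows of the comparison list, which includes the tRNA deaminase gene TAD3, below it. Open symbols are replicates, black ticks means and lines 95% intervals from limma; the intervals of LSM2, STO1 and DBP2 lie above 0, and after adjustment over all introns STO1 and DBP2 passed.

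The rows most like each factor gene were found by the root mean square difference over 9 values, 3 classes in 3 replicates, among 209 rows with all 9. MUD1 was nearest to RPS25A, a small ribosomal subunit protein gene (0.15), the meiotic recombination gene REC114 (0.16) and the proteasome subunit gene PRE3 (0.18), where the median row lay at 0.45. LSM2 was nearest to the ribosomal protein genes RPS4A (0.19), RPS17A (0.21) and RPL21B (0.21), with a median of 0.42. LSM7 was nearest to RPL30 (0.28), RPS14B (0.28) and the ubiquitin-conjugating enzyme gene UBC8 (0.31), with a median of 0.59. STO1 was nearest to RPL28 (0.29), RPS7B (0.30) and IMD4, an enzyme of guanine nucleotide synthesis (0.33), with a median of 0.57. None of the 4 was among the nearest 3 rows of another. With only 3 of 209 rows named for each, that would be usual for any genes, so nothing about the 4 is read from it. Some row must lie nearest, so the medians give only the scale.

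Across the whole table the replicates were related for introns and only weakly for the other classes. Pearson's r between replicates, across features that share their arrays, was 0.41 to 0.64 for introns, 0.014 to 0.39 for exons and 0.0015 to 0.23 for junctions. The median exon ratio was -0.14 ± 0.06 and the median intron ratio 0.29 ± 0.08 over the replicates (SD, n = 3). Spot intensities were not used, so a low signal behind any of these ratios cannot be seen.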

How the data were processed

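The values are log2 ratios from the authors' deposited table: per the labels, each array was analysed together with its dye flip, giving 1 value per biological replicate. Their image analysis, background correction, filtering and normalization: not given in the sources used here. Rows of one gene repeat its exon value, so 14 repeated exon features and 1 repeated junction feature were each kept once. A feature needed values in 2 or more replicates. Ratios were tested against 0, two-sided, with limma 3.58.1 (R 4.3.3) and moderated variances from 1 fit over all classes; p-values were adjusted in each class over all its features (Benjamini-Hochberg, threshold 0.05). Differences between classes had a fit each. The script was tested on simulated data. The number of arrays limits the precision.

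The genes and lists were chosen with earlier results of these data known. Named were the 4 genes, listed genes that passed or the largest, the 3 nearest rows to each, and ACT1. NMD2, SMD2 and a row of MTR2 were given values outside this rule. Locus tags of all 4 matched RefSeq (R64). Alternatives were centring on exon medians, leaving out a replicate, complete features, robust variances, replicate weights and separate fits.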

Additional observations from a re-analysis of the deposited data

How the results depend on the processing

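Of 168 values of the 4 genes under alternatives, 147 kept their direction and side of the threshold, 14 turned sign without being called, 4 newly passed and 3 no longer passed; except where said, the cause was not tested. With each replicate centred on its exon median, 91 introns and 0 junctions passed, the LSM2 intron passed (0.58), and the MUD1 intron (0.062), the LSM7 junction (0.090), the STO1 junction (0.13) and the LSM2 exon (0.064) were above 0; centring raises every value by construction, since the exon medians were below 0. With replicate weights the junctions of LSM7 (0.011) and STO1 (0.015) were above 0 and intron minus exon of STO1 passed (0.72). With each class in its own fit 0 junctions passed. Leaving out 1 replicate gave 2 to 47 called introns, 0 to 11 junctions, 2 to 37 for intron minus junction and 0 to 57 for intron minus exon, with fewer samples in each fit. These counts also differ in how the SE was set. For introns the 4 genes had a shared SE without replicate 1 (35 called) and without replicate 3 (47), but not without replicate 2 (2). For intron minus exon they shared it without replicate 2 (45) and without replicate 3 (57), but not without replicate 1 (0). For single genes, leaving out 1 replicate gave intron means of 0.16 to 0.95 for LSM7, -0.21 to 0.088 for MUD1 and 0.64 to 1.00 for STO1. Junction means ran from -0.26 to 0.0083 for LSM2, -0.13 to 0.084 for LSM7 and -0.075 to 0.084 for STO1, and the STO1 exon from -0.15 to 0.34. Intron minus junction ran from 0.073 to 1.05 for LSM7, -0.078 to 0.16 for MUD1 and 0.72 to 0.92 for STO1, and junction minus exon from -0.21 to 0.056 for LSM2 and -0.41 to 0.23 for STO1. Each value is already a ratio within a pair of cultures, so the tests against 0 used the pairing. Signal over background was not analysed here.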
